A study of Mus musculus with 2 samples.

Results

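Ribosomal protein genes were followed through single cells of the mouse mediobasal hypothalamus (arcuate nucleus with median eminence), which controls feeding and pituitary output. The members were the rows of the deposited gene tables whose names follow the pattern of a cytosolic ribosomal protein gene (Rps or Rpl and a number, with Rpsa, Rplp0, Rplp1 and Rplp2) and do not hold -ps. This gave 89 of the 29809 rows, 36 with small subunit names and 53 with large subunit names. Of these, 87 stood in both tables, Rpl3l stood only in the Irx3/5dHet table and Rps12l1 only in the WT table. The annotation used here (GENCODE M21, GRCm38) calls 84 of them protein coding. It calls the other 5 (Rps3a2, Rps3a3, Rps4l, Rps12l1 and Rpl6l) pseudogenes, so the data's own names include rows that are not coding genes. Fau and Rack1 also encode ribosomal proteins, but their names do not follow the pattern and they are given apart. Past a minimum of 50 unique molecular identifiers (UMIs) over both libraries came 83 members, and Rpl29, Rpl10l, Rpl24, Rpl3l, Rpl39l and Rps12l1 did not.

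The Irx3/5dHet library pooled 5 mice labelled Irx3/5+/-, heterozygous for the transcription factor genes Irx3 and Irx5, and the WT library pooled 7 wild-type mice. All were CD-1 mice of 7 to 8 weeks, and live cells were sorted before droplet capture by Drop-seq. Each genotype was thus 1 pool and 1 library, nothing maps cells to mice, and no difference below has a replicate check. Intervals are exact 95% intervals for counting error only, and no p-value is given. How the alleles were made was not given in the sources used here.

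After cells with under 300 genes or over 20% mitochondrial UMIs were left out, 1484 Irx3/5dHet cells with 2862026 UMIs and 2405 WT cells with 4282490 UMIs remained. The median was 1160.5 UMIs per Irx3/5dHet cell and 1274 per WT cell, and 1 kept barcode sequence occurred in both libraries. Irx3 had 15 UMIs in the Irx3/5dHet library and 31 in the WT library, and Irx5 had 6 in Irx3/5dHet and 16 in WT, and 3′ tags of alleles whose deleted part is not given check neither label. Cells were clustered without ribosomal protein genes or their pseudogenes, and each class took its name from marker genes. The short class names below (neuron, tanycyte and so on) stand for neuron-like, tanycyte-like and further such classes. The defining markers were present in the classes they name. Levels are given as CPM, the UMIs of a gene scaled to a total of 1000000 UMIs in the library or class. The 10 neuron markers summed to 17350 CPM in Irx3/5dHet neurons and 20435 CPM in WT neurons, against 794 CPM in Irx3/5dHet and 798 CPM in WT oligodendrocytes. The 10 oligodendrocyte markers summed to 134379 CPM in Irx3/5dHet oligodendrocytes and 122335 CPM in WT oligodendrocytes, against 255 CPM in Irx3/5dHet and 354 CPM in WT neurons. Tanycytes were less distinct, and no class was named astrocyte. The 11 tanycyte markers summed to 4328 CPM in Irx3/5dHet tanycytes and 3487 CPM in WT tanycytes. The 10 astrocyte markers summed there to 3429 CPM in Irx3/5dHet and 3114 CPM in WT. Whether the tanycyte class also holds astrocytes was not tested. Since each UMI marks 1 captured 3′ end, CPM is not scaled by gene length.

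As background, a ribosome holds 1 copy of nearly every ribosomal protein, so the genes of both subunits are as a rule transcribed and translated together. Their mRNAs start with a run of pyrimidines at the 5′ end (the 5′ terminal oligopyrimidine, or TOP, motif), through which mTOR signalling sets their translation. Mammalian ribosomal protein genes are also known for a very large number of processed pseudogenes, spliced copies pasted elsewhere in the genome. A read from the 3′ end of such an mRNA can match the gene and its copies almost equally well. By a match of pseudogene transcripts to member transcripts (at least 80% identity over at least 50% of the coding length), 1285 further rows of the tables were such copies, 1034 of them with names starting with Gm and 245 with -ps in the name, and 80 protein-coding members had at least 1 copy.

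The end of the coding sequence shows how alike a gene and a chosen copy can be. For Rps7, Rps23 and Rpl7, which were among the members with high ratios of Irx3/5dHet over WT and were picked after their values were seen, the last coding bases to the stop codon, within the last coding exon, are set beside the same stretch of the copy with most UMIs (GENCODE M21 transcripts, GRCm38), and capitals mark a base that differs. The stretches are Rps7 (chr12:28631116-28631175, minus strand), its copy Gm6472 (chrX:152909536-152909595, minus strand), Rps23 (chr13:90924624-90924683, plus strand), its copy Gm10689 (chr8:25454645-25454704, plus strand), Rpl7 (chr1:16101728-16101787, minus strand) and its copy Rpl7-ps7 (chr5:82337589-82337648, plus strand).
Rps7: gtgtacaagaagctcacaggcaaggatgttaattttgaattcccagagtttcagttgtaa
Gm6472: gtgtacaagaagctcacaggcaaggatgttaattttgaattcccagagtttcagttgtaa
Rps23: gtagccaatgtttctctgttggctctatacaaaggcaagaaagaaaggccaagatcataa
Gm10689: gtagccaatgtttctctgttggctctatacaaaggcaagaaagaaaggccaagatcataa
Rpl7: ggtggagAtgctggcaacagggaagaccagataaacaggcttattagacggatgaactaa
Rpl7-ps7: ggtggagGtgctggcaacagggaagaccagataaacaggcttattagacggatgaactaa

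Over these 60 bases Rps7 and Gm6472 differed at 0 positions, Rps23 and Gm10689 at 0 positions, and Rpl7 and Rpl7-ps7 at 1 position. Whole aligned transcripts were 99.4% identical for the Rps7 pair, 99.1% for the Rps23 pair and 98.0% for the Rpl7 pair. The split of UMIs within a pair differed between the libraries. Rps7, a small subunit protein, had 299 CPM in the Irx3/5dHet library and 50.2 CPM in the WT library, while Gm6472 had 339 CPM in Irx3/5dHet and 185 CPM in WT. Rps23, a protein of the decoding centre, had 150 CPM in Irx3/5dHet and 46.5 CPM in WT, while Gm10689 had 339 CPM in Irx3/5dHet and 469 CPM in WT. Rpl7 had 331 CPM in Irx3/5dHet and 113 CPM in WT, and Rpl7-ps7 had 35.3 CPM in Irx3/5dHet and 57.7 CPM in WT. Rps7, Rps23 and Rpl7 were each higher in Irx3/5dHet than in WT. Gm6472 was higher in Irx3/5dHet than in WT too, while Gm10689 and Rpl7-ps7 were lower in Irx3/5dHet than in WT. The setting by which the authors assigned reads that match several places was not given in the sources used here, so a level of a member alone cannot be told apart from a level of the member's share of such reads.

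In the Irx3/5dHet library 3.90% of all UMIs fell in ribosomal protein genes (3.88% to 3.92%), against 3.16% in the WT library (3.14% to 3.17%). The log2 ratio, here and throughout Irx3/5dHet over WT, was 0.30 (0.29 to 0.32). Their pseudogene copies went the other way, with 3.11% of UMIs in Irx3/5dHet and 4.92% in WT, a log2 ratio of -0.66. With genes and copies summed the Irx3/5dHet library had 7.01% and the WT library 8.07%, a log2 ratio of -0.20, so the direction of the difference turned when the copies were added. Processed pseudogenes of other genes took 3.23% of UMIs in Irx3/5dHet and 4.24% in WT. The share of ribosomal protein UMIs that was listed under the genes themselves, called own share below, was 55.6% in Irx3/5dHet and 39.1% in WT. Across the 11 named classes other than cycling cells it lay between 55.0% and 59.1% in Irx3/5dHet and between 38.0% and 42.6% in WT, so the difference between the libraries was there in every class. Cell makeup differed too, with neurons 684 of 1484 Irx3/5dHet cells and 809 of 2405 WT cells. Every ratio over all cells, here and below, also holds this difference in makeup, and its part was not tested.

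**Figure D1:**
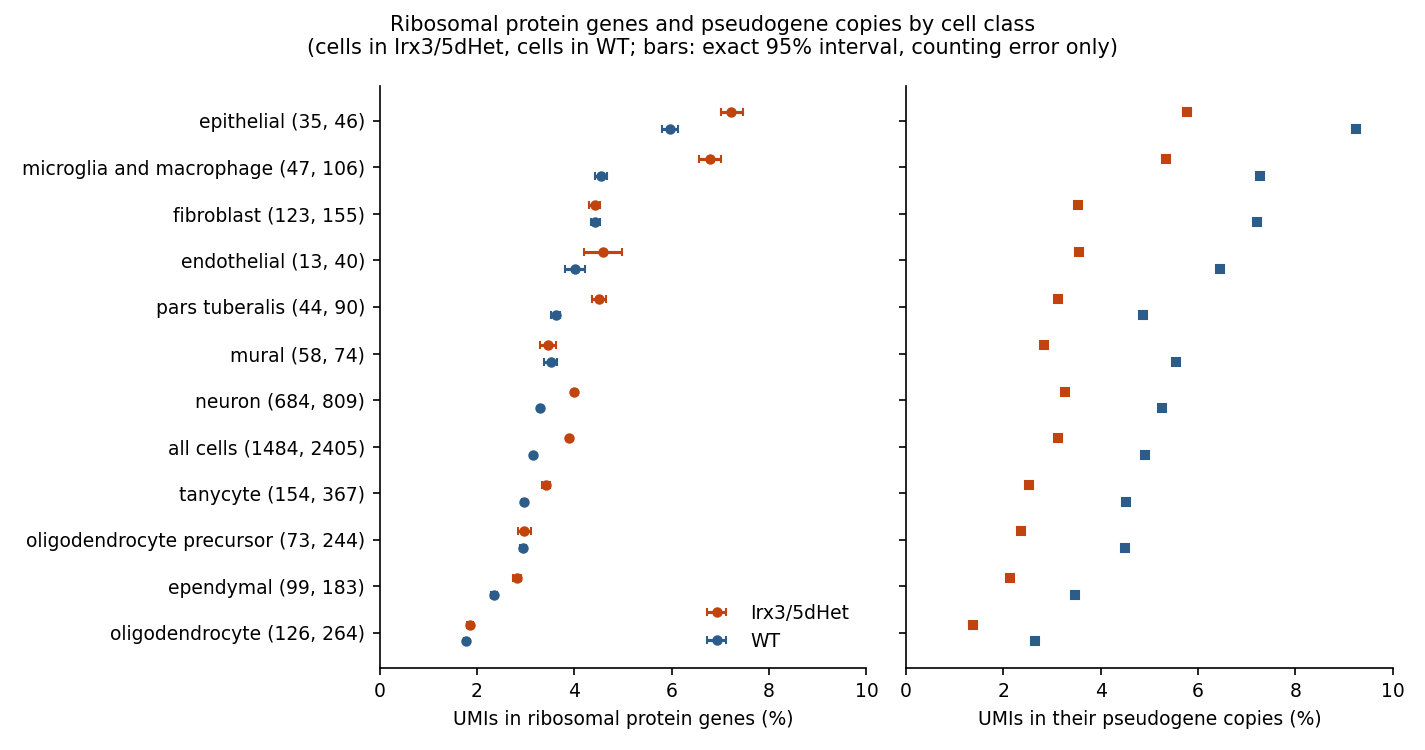
Percent of UMIs in ribosomal protein genes (left) and in their pseudogene copies (right) for each class, with Irx3/5dHet (red) above WT (blue) and the number of cells of each in brackets. Bars on the left are exact 95% intervals for counting error. The genes ran from under 2% in oligodendrocytes to 7.23% (Irx3/5dHet) and 5.97% (WT) in epithelial cells, and the copies were lower in Irx3/5dHet than in WT in every class drawn.

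Cell classes differed more than the libraries did, and epithelial cells stood first and oligodendrocytes last in each library. Epithelial cells, led by Cyp2f2, Wfdc2 and keratin genes, had the highest share, 7.23% in 35 Irx3/5dHet cells and 5.97% in 46 WT cells. Microglia and macrophages followed with 6.78% in 47 Irx3/5dHet cells and 4.54% in 106 WT cells. Fibroblasts (4.42% in Irx3/5dHet and 4.43% in WT), endothelial cells (4.58% in Irx3/5dHet and 4.01% in WT) and pars tuberalis cells (4.51% in Irx3/5dHet and 3.62% in WT) came next. The endothelial class held only 53 cells, 40 of them WT. In it 4 red blood cell markers summed to 0 CPM in Irx3/5dHet and 12571 CPM in WT. Neurons had 3.998% in Irx3/5dHet and 3.30% in WT, mural cells 3.45% in Irx3/5dHet and 3.51% in WT, and tanycytes, the glia that line the floor of the third ventricle, 3.41% in Irx3/5dHet and 2.96% in WT. Below them stood oligodendrocyte precursors with 2.97% in Irx3/5dHet and 2.94% in WT and ependymal cells with 2.82% in Irx3/5dHet and 2.35% in WT. Oligodendrocytes, the myelin-forming glia, were lowest with 1.86% (1.79% to 1.92%) in Irx3/5dHet and 1.78% (1.74% to 1.81%) in WT. Averaged over the libraries the share in oligodendrocytes was lower than that in neurons by a log2 difference of -1.0003. With copies added these 2 classes were still first and last: epithelial cells had 13.0% in Irx3/5dHet and 15.2% in WT, and oligodendrocytes 3.23% in Irx3/5dHet and 4.43% in WT.

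Among the 4 classes that held 100 cells or more in both libraries, neurons had a log2 ratio of the ribosomal protein share of 0.28 (0.26 to 0.29) and tanycytes of 0.20 (0.16 to 0.24). Oligodendrocytes had 0.06 (0.00 to 0.12) and fibroblasts 0.00 (-0.05 to 0.05). With copies added the ratio was below 0 in each of them, at -0.24 in neurons, -0.33 in tanycytes, -0.46 in oligodendrocytes and -0.55 in fibroblasts. Smaller classes ranged from -0.02 in mural cells to 0.58 (0.52 to 0.64) in microglia and macrophages, which had few cells. Median depth moved with the genotype in part of them: neurons had 1755.5 UMIs per cell in Irx3/5dHet and 1548 in WT, and tanycytes 921.5 in Irx3/5dHet and 1400 in WT. With each cell thinned to 1000 UMIs the share over all cells was 3.69% in Irx3/5dHet and 3.07% in WT. The part of depth in the ratios of single classes was not tested.

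Within the neurons the share of ribosomal protein UMIs varied from cluster to cluster. Agrp and Npy neurons, which drive feeding, had the highest, 5.65% in 44 Irx3/5dHet cells and 4.95% in 15 WT cells. The largest cluster, led by Sst, Gal and Pomc, had 4.01% in Irx3/5dHet and 3.58% in WT, and the cluster led by Vip and Rgs16 had 3.75% in Irx3/5dHet and 3.67% in WT. A cluster led by long non-coding RNAs (Meg3, Kcnq1ot1 and Miat) had the lowest, 0.593% in 40 Irx3/5dHet cells and 0.469% in 126 WT cells, beside a low median depth of 591 UMIs in Irx3/5dHet and 663.5 in WT. Malat1, an RNA retained in the nucleus, stood at 34818 CPM in Irx3/5dHet and 55800 CPM in WT in that cluster, against 3607 CPM in Irx3/5dHet and 4038 CPM in WT in the largest neuron cluster. The Meg3-led cluster made up 5.85% of Irx3/5dHet neurons and 15.6% of WT neurons. Log2 ratios within the 6 clusters of the neuron class ran from 0.03 to 0.34, and without the Meg3-led cluster the ratio over neurons was 0.23. A cluster led by Tac2 and Kiss1 stood outside the neuron class, though it passed 10 neuron markers. Its 10 leading genes held 1 marker of another class and 0 neuron markers. This cluster had 5.13% in 22 Irx3/5dHet cells and 4.32% in 16 WT cells. Where neurons are set against all other cells below, its cells count among the other cells.

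Levels of single members differed widely. Rpl41, which encodes the smallest ribosomal protein, led with 2146 CPM in Irx3/5dHet and 1444 CPM in WT. Rps14, a small subunit protein of the platform, followed with 1735 CPM in Irx3/5dHet and 1518 CPM in WT, then Rpl37 with 1332 CPM in Irx3/5dHet and 1129 CPM in WT and Rplp1, an acidic protein of the stalk that binds elongation factors, with 1201 CPM in Irx3/5dHet and 1134 CPM in WT. Rps9, Rpl37a, Rps21, Rpl14 and Rpl4 were also among the 10 members with most UMIs, which together held 34.1% of all ribosomal protein UMIs in Irx3/5dHet and 34.7% in WT. Of all 89 members, 13 in Irx3/5dHet and 5 in WT reached at least 1000 CPM, and 32 members in Irx3/5dHet and 35 in WT were under 100 CPM. The median of the 83 measured members was 328.8 CPM in Irx3/5dHet and 256.9 CPM in WT. At the low end, Rpl24 had 4.19 CPM in Irx3/5dHet and 2.10 CPM in WT, Rpl29 had 8.04 CPM in Irx3/5dHet and 3.04 CPM in WT, and Rps6, the classic substrate of S6 kinase, had 16.8 CPM in Irx3/5dHet and 7.47 CPM in WT.

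**Figure D2:**
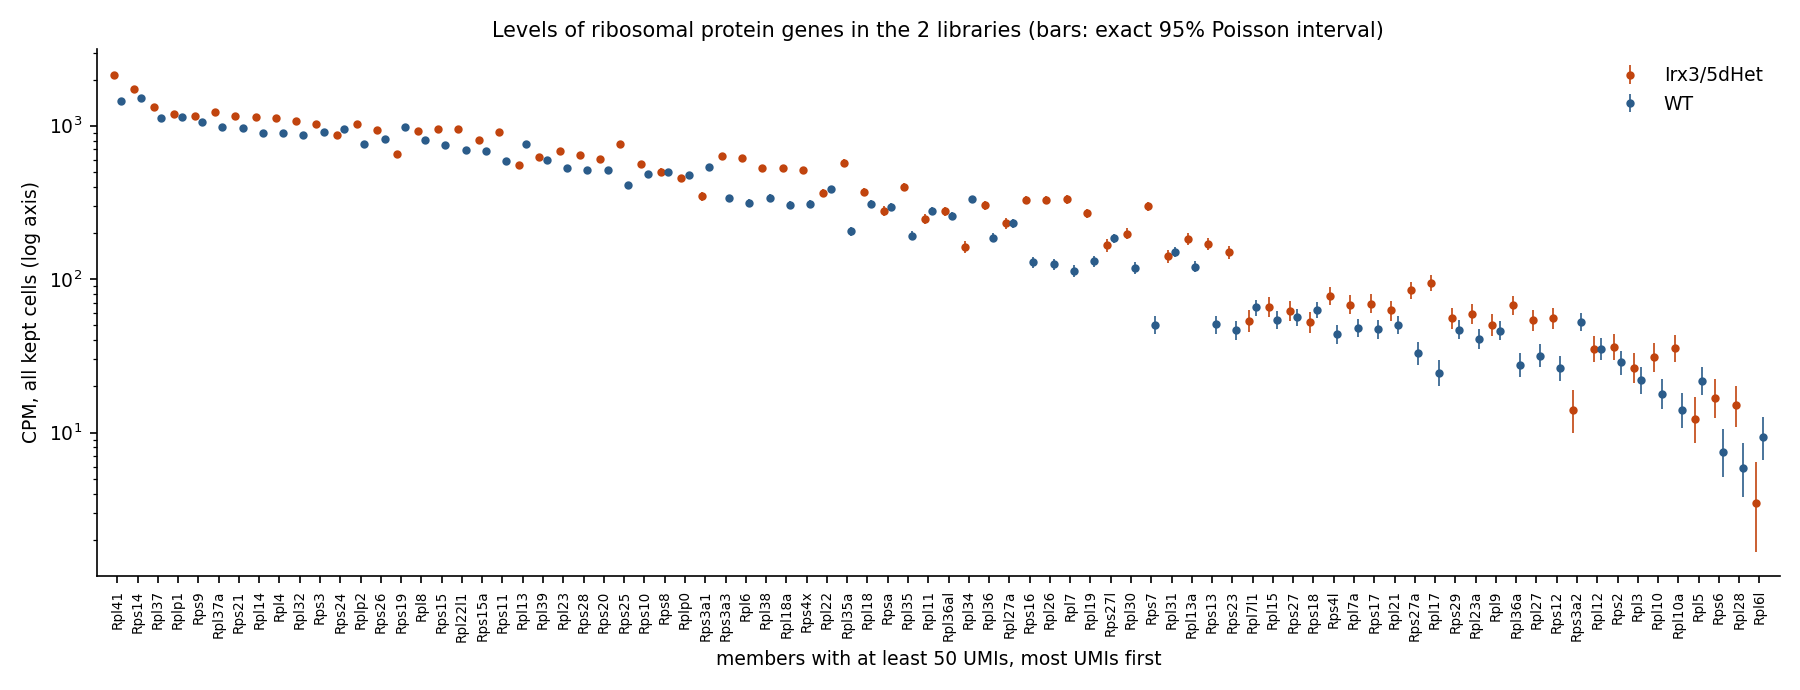
Levels of the measured members reported here, in CPM on a log axis, Irx3/5dHet (red) and WT (blue), in order of UMIs over both libraries. Rpl41 leads with 2146 CPM in Irx3/5dHet and 1444 CPM in WT, and a tail at the right lies under 100 CPM in both libraries.

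Copies of the low members often held far more UMIs than the member itself. Rpl24 had 12 UMIs in Irx3/5dHet and 9 in WT, while its 9 copies held 1616 UMIs in Irx3/5dHet and 3742 UMIs in WT. Rpl21 had 179 UMIs in Irx3/5dHet and 216 in WT, an own share of 4.08% in Irx3/5dHet and 1.93% in WT, and its 82 copies held 4208 UMIs in Irx3/5dHet and 10963 UMIs in WT. Rps27, a small subunit protein with a zinc finger, had 177 UMIs in Irx3/5dHet and 243 in WT beside 1782 UMIs in Irx3/5dHet and 6362 UMIs in WT listed under its copies. At the other end stood Rps3, a protein at the mRNA entry channel, and Rpl8, a protein near the peptidyl transferase centre, with 0 copies in the tables. Across the 79 measured protein-coding members, Spearman's rho between the number of annotated copies and the CPM was -0.45 in Irx3/5dHet and -0.46 in WT, a description over genes that share both libraries. The order of the members was close to the same in the libraries, with a rho of 0.95 between their CPM.

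Between the libraries, 40 of the 83 measured members were higher in Irx3/5dHet than in WT by a log2 ratio beyond 0.32, the fold used to call a difference, against 17.2% of all 13264 genes with at least 50 UMIs. Another 7 members were lower past that fold, against 29.7% of all genes, and 36 lay within it. The members' median log2 ratio was 0.31, with quartiles of 0.09 and 0.79, and that of all genes was -0.06. Small subunit members had a median of 0.24 over 35 genes and large subunit members 0.34 over 48 genes. The ratios varied with the own share. In the 12 protein-coding members with an own share of at least 75% in both libraries, ratios lay between -0.29 and 0.57 with a median of 0.18, and 3 were past the fold, each higher in Irx3/5dHet. In the 67 others they lay between -1.03 and 2.57 with a median of 0.34.

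Own share was itself higher in Irx3/5dHet than in WT for 72 of the 77 measured members with copies. With each member's copies added to it, 4 members were past the fold as higher in Irx3/5dHet and 38 as lower, and the median log2 ratio was -0.22. Spearman's coefficient between the own share in WT and the log2 ratio was -0.46 for members alone and 0.61 with copies added, over the same 79 genes. The WT counts enter both the own share and the ratio. Part of each coefficient, and of the change of sign, can thus be built in, and that part was not tested. Of the members with 0 copies, Rps3 had 1025 CPM in Irx3/5dHet and 906 CPM in WT, and Rpl8 had 919 CPM in Irx3/5dHet and 806 CPM in WT. Their log2 ratios were 0.18 (0.11 to 0.25) for Rps3 and 0.19 (0.12 to 0.26) for Rpl8. Both lay above the median of all genes and within the fold.

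**Figure D3:**
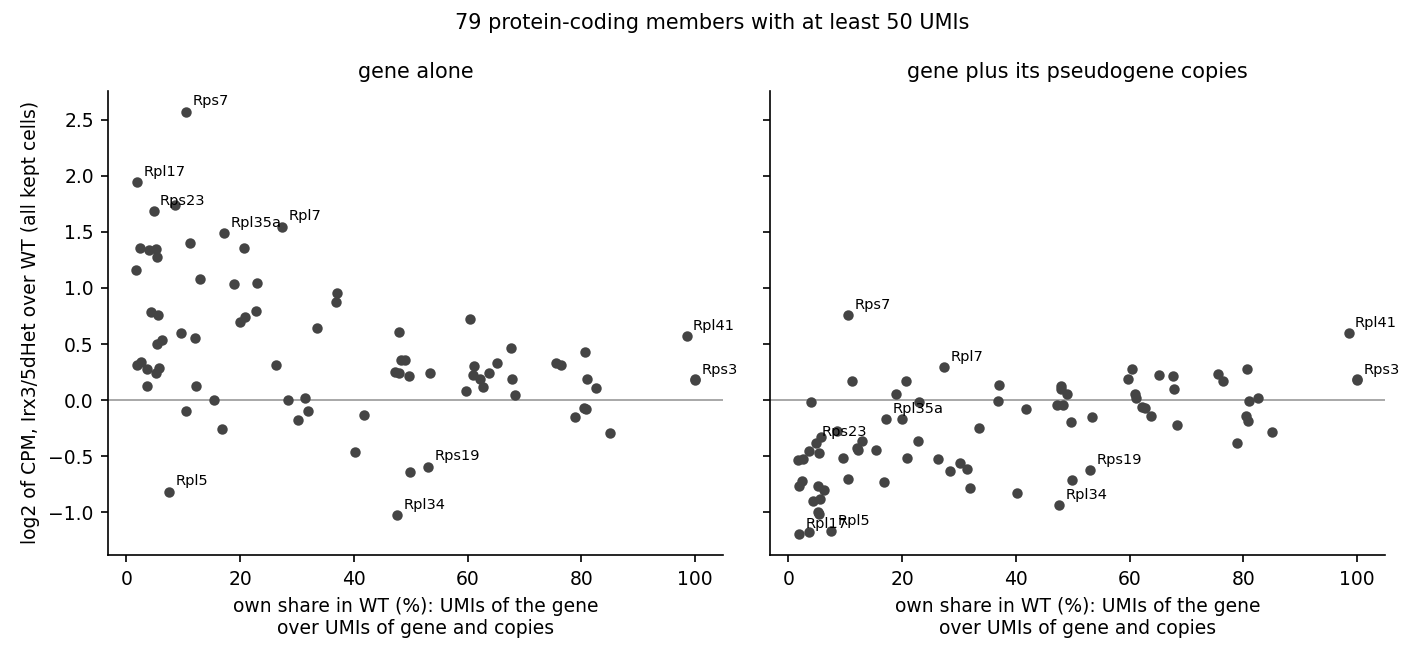
Log2 ratio of Irx3/5dHet over WT for 79 protein-coding members against the percent of UMIs of member and copies that is listed under the member in WT, for the member alone and with its copies added. Members alone spread from -1.03 to 2.57 below 75%, and the 12 members at or above 75% in both libraries lie between -0.29 and 0.57.

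The widest differences were in members with few UMIs of their own. Rps7 (ENSMUSG00000061477.4, chr12:28630854-28635953 of GRCm38) had 856 UMIs in Irx3/5dHet and 215 in WT, a log2 ratio of 2.57 (2.36 to 2.80). Its copies held 1459 UMIs in Irx3/5dHet and 1832 UMIs in WT, and with them the ratio was 0.76, so Rps7 was still higher in Irx3/5dHet past the fold. Rpl17, a protein at the exit of the nascent chain tunnel, had 271 UMIs in Irx3/5dHet and 105 in WT with a ratio of 1.95, and -1.19 with copies. Rps13 had 486 UMIs in Irx3/5dHet and 217 in WT (1.74, and -0.28 with copies), and Rps23 had 428 UMIs in Irx3/5dHet and 199 UMIs in WT (1.68, and -0.38 with copies). For these last 3 members the direction thus turned with the copies.

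Rpl7 and Rpl26, whose ends were also nearly the same as those of a copy, kept their direction. Rpl7 had 947 UMIs in Irx3/5dHet and 485 in WT (1.55, and 0.30 with copies). Rpl26, a protein near the tunnel exit, had 940 UMIs in Irx3/5dHet and 534 in WT (1.40, and 0.17 with copies). Rpl35a had 1648 UMIs in Irx3/5dHet and 879 in WT (1.49), but -0.17 with copies, where its own share was 54.4% in Irx3/5dHet and 17.2% in WT. Rpl41 is the most abundant of the members with a high own share, 96.6% in Irx3/5dHet and 98.5% in WT, and its ratio was 0.57 (0.52 to 0.62), or 0.60 with copies.

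A few members went the other way. Rpl34 (chr3:130726831-130730398) had 466 UMIs in Irx3/5dHet and 1420 in WT, a log2 ratio of -1.03 (-1.18 to -0.87), and its own share was close to equal in the libraries, 44.8% in Irx3/5dHet and 47.6% in WT. With copies its ratio was -0.94. Rps19, a small subunit protein known from Diamond-Blackfan anaemia, had 653 CPM in Irx3/5dHet and 986 CPM in WT (-0.59, and -0.62 with copies). Rps3a1 had 346 CPM in Irx3/5dHet and 541 CPM in WT (-0.64, and -0.71 with copies). Rpl34 and Rps19 were lower in Irx3/5dHet whether or not copies were added. For Rps3a1 this held only for the copies used here, since pseudogene rows that count as members were not added as copies. Rps3a2 and Rps3a3, given next, were thus left out, and a ratio of Rps3a1 with them was not computed.

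The pseudogene rows among the members differed in direction. Rps3a2, a processed pseudogene on chromosome 14, had 40 UMIs in Irx3/5dHet and 225 in WT, a log2 ratio of -1.90 (-2.43 to -1.42). Rps3a3, a processed pseudogene on chromosome 13, had 1818 UMIs in Irx3/5dHet and 1448 in WT, a ratio of 0.91 (0.81 to 1.01). It overlaps Pde4d, which had 40 UMIs in Irx3/5dHet and 96 in WT. Rps4l had 222 UMIs in Irx3/5dHet and 188 in WT (0.82), and Rpl6l had 10 in Irx3/5dHet and 40 in WT (-1.37).

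In neurons 37 of 81 measured members were higher in Irx3/5dHet past the fold and 5 lower, against 15.4% and 24.7% of all 9437 genes. In tanycytes 21 of 58 were higher and 5 lower, against 27.3% and 21.9% of 3317 genes. In oligodendrocytes 13 of 50 were higher and 9 lower, against 20.4% and 25.2% of 2232 genes, and in fibroblasts 14 of 54 were higher and 7 lower, against 25.0% and 24.4% of 1166 genes. The share of members called higher was above the background in neurons and close to it in fibroblasts. Median log2 ratios of the members were 0.25 in neurons, 0.19 in tanycytes, 0.05 in oligodendrocytes and 0.00 in fibroblasts. Over all genes measured in a class the medians were -0.03 in neurons, 0.08 in tanycytes, -0.02 in oligodendrocytes and 0.04 in fibroblasts. With copies added the members' medians were -0.18 in neurons, -0.23 in tanycytes, -0.27 in oligodendrocytes and -0.34 in fibroblasts.

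**Figure D4:**
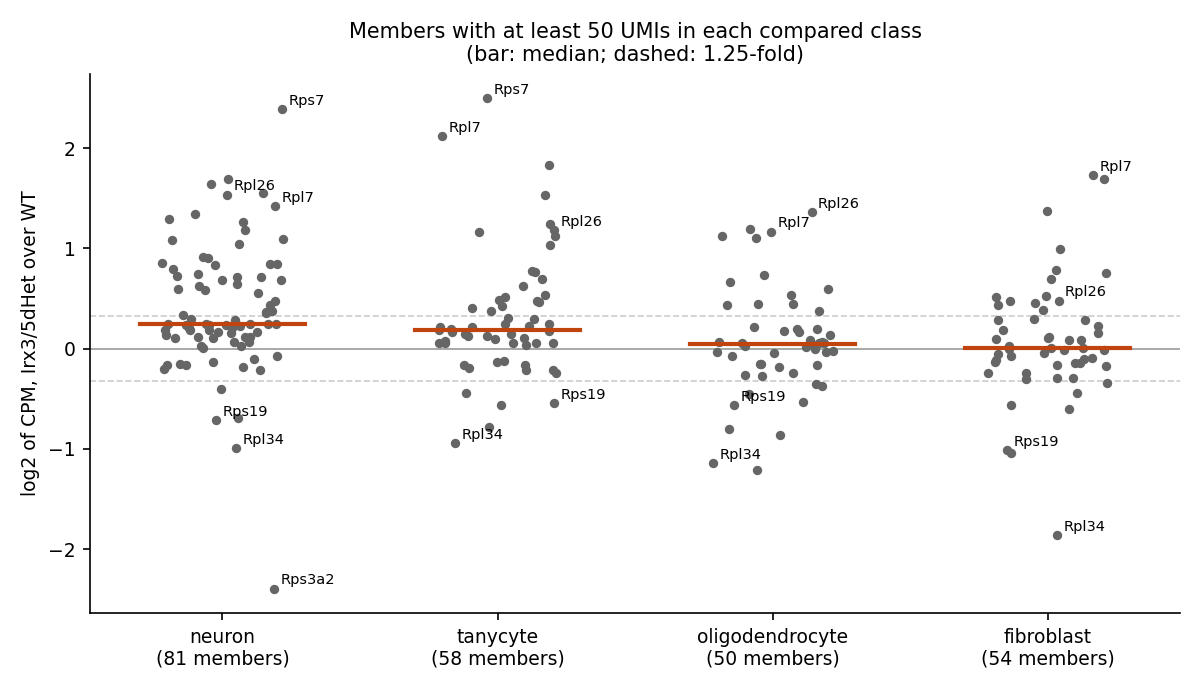
Log2 ratio of Irx3/5dHet over WT for each measured member in neurons (81), tanycytes (58), oligodendrocytes (50) and fibroblasts (54), with the median as a bar and dashed lines at a log2 ratio of 0.32 on either side of 0. The medians run from 0.25 in neurons to 0.00 in fibroblasts, and single members reach beyond 1 on either side.

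The classes come from the same pair of libraries, so a ratio seen in several of them is not seen in independent samples. Rps7 had 327 CPM in Irx3/5dHet neurons and 62.2 CPM in WT neurons, a log2 ratio of 2.39, and 2.50 in tanycytes. Rpl7 had 297 CPM in Irx3/5dHet neurons and 111 CPM in WT neurons (1.42), and ratios of 2.11 in tanycytes, 1.17 in oligodendrocytes and 1.73 in fibroblasts. Rps16 had ratios of 1.29 in neurons, 1.16 in tanycytes, 1.19 in oligodendrocytes and 1.37 in fibroblasts. Rpl34 had 174 CPM in Irx3/5dHet neurons and 347 CPM in WT neurons (-0.99), and ratios of -0.94 in tanycytes, -1.14 in oligodendrocytes and -1.86 in fibroblasts.

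Rps19 had 667 CPM in Irx3/5dHet neurons and 1094 CPM in WT neurons, a log2 ratio of -0.71, with -0.54 in tanycytes, -0.57 in oligodendrocytes and -1.02 in fibroblasts. Rps3, with no copies, had 0.11 in neurons, 0.30 in tanycytes, 0.06 in oligodendrocytes and -0.16 in fibroblasts. In the last 2 of these classes its interval included 0. The lowest ratios in oligodendrocytes were those of Rpl11, a protein that binds Mdm2 when free, with 13 UMIs in Irx3/5dHet and 80 in WT (-1.21), Rpl34, and Rpsa, the laminin receptor protein, with 29 UMIs in Irx3/5dHet and 137 UMIs in WT (-0.86). In tanycytes Rps18 had 8 UMIs in Irx3/5dHet and 46 in WT (-0.79, with an interval of -2.15 to 0.24), so this difference was not detectable at this depth.

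The makeup of the ribosomal protein UMIs also differed between classes, and here each library was compared within itself. A member's share of all ribosomal protein UMIs in a class was set against its share in all other cells. A departure was counted where both libraries had at least 20 observed or expected UMIs and both intervals lay on the same side of 0. Neurons had 20 members with a higher and 16 with a lower share of 81. Tanycytes had 7 higher and 5 lower of 57, oligodendrocytes 6 higher and 2 lower of 48, fibroblasts 5 higher and 5 lower of 54, and ependymal cells 7 higher and 7 lower of 51. Neurons, the class with most UMIs, thus had the most. For every other class, all other cells included the neurons, so a departure there can mirror one of neurons. The widest ranges over the 4 compared classes, of 50 members measured in each, were those of Rpl22l1 (a log2 range of 1.90), Rplp0 (1.49), Rps27l (1.253), Rpl22 (1.21) and Rpl36al (1.15).

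**Figure D5:**
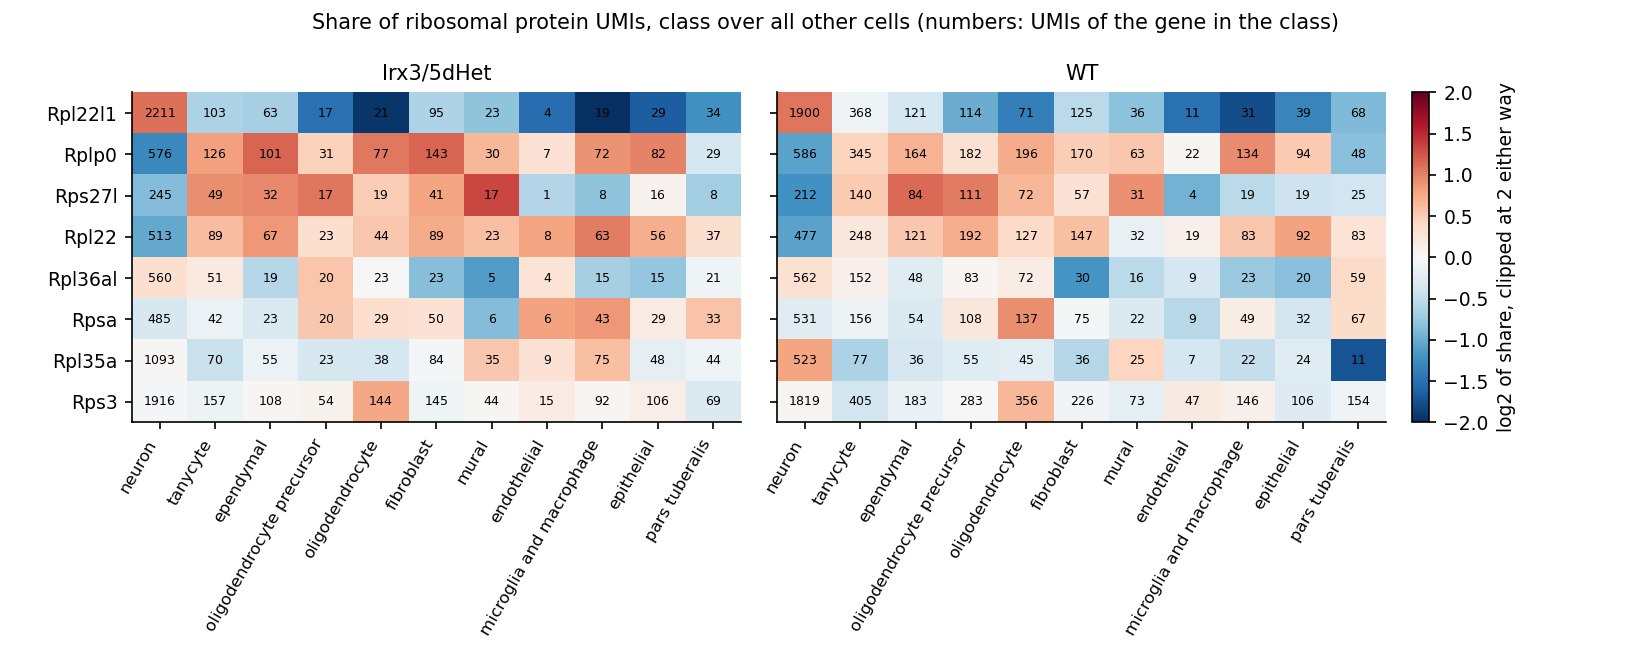
Log2 ratio of a member's share of ribosomal protein UMIs in a class over its share in all other cells, for the 8 members with the widest range and 11 classes, Irx3/5dHet on the left and WT on the right. Numbers in the fields are the member's UMIs, and colours stop at 2. Rpl22l1 is high in neurons (1.10 in Irx3/5dHet and 1.07 in WT) and low in oligodendrocytes (-1.94 in Irx3/5dHet and -1.37 in WT), and Rpl22 is low in neurons.

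4 of those 5 members are paralogs or their partners. Rpl22l1 (chr3:28805436-28807424) encodes a near relative of Rpl22 (chr4:152325742-152334071), a large subunit protein that is known to repress Rpl22l1 by binding its RNA. Rpl22l1 made up 3.001% of ribosomal protein UMIs in Irx3/5dHet neurons and 1.40% in all other Irx3/5dHet cells, a log2 ratio of 1.10 (0.96 to 1.24). In WT it made up 3.06% in neurons and 1.45% elsewhere, a ratio of 1.07 (0.96 to 1.18). Rpl22 was the reverse, with 0.696% in Irx3/5dHet neurons and 1.41% elsewhere (-1.02), and 0.768% in WT neurons and 1.62% elsewhere (-1.08). With copies added the ratios were 1.08 in Irx3/5dHet and 1.05 in WT for Rpl22l1, and -1.09 in Irx3/5dHet and -1.06 in WT for Rpl22.

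By level, Rpl22l1 had 1199.6 CPM in Irx3/5dHet neurons and 1009 CPM in WT neurons, and Rpl22 had 278 CPM in Irx3/5dHet and 253 CPM in WT. Oligodendrocytes had the opposite order, with 118 CPM of Rpl22l1 in Irx3/5dHet and 156 CPM in WT, while Rpl22 had 248 CPM in Irx3/5dHet and 278 CPM in WT. Among the classes with a departure, microglia had the lowest share of Rpl22l1, 0.555% in Irx3/5dHet and 0.650% in WT, and its log2 ratios to other cells were -2.14 in Irx3/5dHet and -1.77 in WT. Among neuron clusters it lay between 2.62% and 3.32% in Irx3/5dHet and between 2.59% and 3.52% in WT, leaving out the Meg3-led cluster with 6 UMIs in Irx3/5dHet and 7 UMIs in WT. An antisense transcript over Rpl22l1, Gm33051, had 7 UMIs in Irx3/5dHet and 5 in WT. Over all cells Rpl22l1 had a ratio between the genotypes of 0.47 (0.39 to 0.54), or 0.22 with copies, and Rpl22 of -0.08 (-0.20 to 0.03). Within each compared class the Rpl22l1 ratio was lower, at 0.25 in neurons, 0.08 in fibroblasts, -0.17 in tanycytes and -0.37 in oligodendrocytes. The ratio over all cells also holds the different part of neurons in the libraries, whose effect was not tested.

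Rps27l, a p53-induced relative of Rps27, was also low in neurons, with 0.332% of ribosomal protein UMIs in Irx3/5dHet neurons and 0.607% elsewhere (-0.87), and 0.341% in WT neurons and 0.791% elsewhere (-1.21). It was high in ependymal cells (0.96 in Irx3/5dHet and 1.14 in WT) and tanycytes (0.93 in Irx3/5dHet and 0.52 in WT). It was also high in mural cells (1.34 in Irx3/5dHet and 0.91 in WT, from 17 and 31 UMIs) and oligodendrocyte precursors (1.08 in Irx3/5dHet and 1.04 in WT, from 17 and 111 UMIs). In these ratios the other cells included neurons, where Rps27l was low. Its share in tanycytes was 0.764% in Irx3/5dHet and 0.792% in WT, beside 0.607% and 0.791% in all cells other than neurons. In WT tanycytes it was thus not high beside other cells outside the neuron class. Rplp0, the base of the stalk, had 0.782% in Irx3/5dHet neurons and 1.91% elsewhere (-1.29), and 0.944% in WT neurons and 1.99% elsewhere (-1.08). Its partner in the stalk, Rplp1, was lower in neurons by less (-0.31 in Irx3/5dHet and -0.42 in WT).

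A search for the TOP motif was made in a window at the annotated starts of Rpl22l1, Rpl22, Rps27l and Rps27. Shown are 20 bases before and 20 after the annotated start of each gene (RefSeq, GRCm38.p6), with capitals for a C followed by at least 4 pyrimidines that begins within 5 bases of the start. The stretches are Rpl22l1 (chr3:28805488-28805527, plus strand), Rpl22 (chr4:152325706-152325745, plus strand), Rps27l (chr9:66946066-66946105, plus strand) and Rps27 (chr3:90213629-90213668, minus strand).
Rpl22l1: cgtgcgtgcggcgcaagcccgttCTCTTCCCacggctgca
Rpl22: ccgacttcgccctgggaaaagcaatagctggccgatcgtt
Rps27l: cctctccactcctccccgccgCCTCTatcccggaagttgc
Rps27: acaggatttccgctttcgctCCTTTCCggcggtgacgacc

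The motif was found at Rpl22l1, Rps27l and Rps27 and not in the window at Rpl22. It was found in 32 of 77 RefSeq promoters of members (41.6%, 30 of 65 genes), against 6027 of 32851 promoters of all genes (18.3%). The window was read on the gene's own strand, and annotated starts can lie some bases from those used in these cells.

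Other paralogs stood above or below their partners when copies were left out. Rps27l had 166 CPM in Irx3/5dHet and 184 CPM in WT, and Rps27 had 61.8 CPM in Irx3/5dHet and 56.7 CPM in WT when its copies were left out. The copies of Rps27 held far more UMIs than Rps27 itself, as given above. The order of Rps27l above Rps27 thus holds only for the gene rows alone. Rpl36al had 276 CPM in Irx3/5dHet and 257 CPM in WT, and Rpl36a, with many copies, had 67.4 CPM in Irx3/5dHet and 27.8 CPM in WT (1.28, and -0.47 with copies). In fibroblasts Rpl36al took 0.392% of ribosomal protein UMIs in Irx3/5dHet against 0.726% elsewhere, and 0.366% in WT against 0.843% elsewhere. Rpl36al overlaps Gm49383 on the same strand, which was not used here. Rpl7l1 had 53.5 CPM in Irx3/5dHet and 65.4 CPM in WT, and Rps4x, the X-linked partner of Rps4l, had 514 CPM in Irx3/5dHet and 310 CPM in WT (0.73, and 0.28 with copies). The testis paralog Rpl10l had 7 UMIs in Irx3/5dHet and 18 in WT, Rpl3l, the muscle paralog of Rpl3, had 4 in Irx3/5dHet and 0 in WT, and Rpl39l had 1 in Irx3/5dHet and 1 in WT. A count of 0 allows up to 3 UMIs, so the difference of Rpl3l was not detectable at this depth.

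Single members departed in smaller classes. Rpl13 (chr8:123102350-123105244), a large subunit protein, made up 5.75% of ribosomal protein UMIs in Irx3/5dHet oligodendrocyte precursors against 1.33% in all other cells, a log2 ratio of 2.11 (1.82 to 2.38). In WT it made up 6.99% against 2.04%, a ratio of 1.78 (1.66 to 1.90), and with copies the ratios were 2.16 in Irx3/5dHet and 1.72 in WT. Within that class it was high in the cluster led by C1ql1 and Lhfpl3, with 6.73% (5.53% to 8.11%) in Irx3/5dHet and 8.67% (8.04% to 9.34%) in WT. In the cluster led by Enpp6, Gpr17 and Bmp4, genes of committed precursors, it had 2.42% (1.22% to 4.29%) in Irx3/5dHet and 2.26% (1.72% to 2.90%) in WT. The smaller of its ratios in the libraries, 1.78, was the largest among all departures counted, and the Rpl13 share rested on 114 UMIs in Irx3/5dHet and 696 in WT. It overlaps Gm20388 on the same strand, which was not used here.

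Rps20 (chr4:3831334-3835665) made up 3.44% of ribosomal protein UMIs in Irx3/5dHet pars tuberalis cells against 1.49% elsewhere (1.21), and 3.87% in WT against 1.54% (1.33). Pars tuberalis cells, led by Cga and Tshb, are the thyrotroph-like cells of the pituitary stalk. Rpl41 was high in them (0.82 in Irx3/5dHet and 0.59 in WT) and in tanycytes (7.61% against 5.38% in Irx3/5dHet and 6.75% against 4.25% in WT). Ependymal cells were alike, with 7.68% against 5.42% in Irx3/5dHet and 6.47% against 4.47% in WT. Rps3 was high in oligodendrocytes, with 4.37% against 2.58% in Irx3/5dHet and 4.39% against 2.77% in WT. Rps14 took 9.89% against 4.42% in Irx3/5dHet endothelial cells (52 UMIs) and 6.19% against 4.79% in WT (91 UMIs).

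Other genes of translation were read beside the members in all cells, where 17.2% of all 13264 genes tested were higher in Irx3/5dHet past the fold and 29.7% lower. Of the ribosomal proteins that are named otherwise, Fau, which encodes a fusion with Rps30, had 273 CPM in Irx3/5dHet and 153 CPM in WT (0.84). Rack1, a scaffold on the small subunit, had 310 CPM in Irx3/5dHet and 316 CPM in WT (-0.03). Of 20 elongation factor and other TOP mRNAs, 10 were higher in Irx3/5dHet past the fold and 1 lower, and the median was 0.30 against -0.06 for all genes. Eef1a1, which brings aminoacyl-tRNA to the ribosome, had 4299 UMIs in Irx3/5dHet and 2366 in WT (1.44), and Btf3 had 825 in Irx3/5dHet and 461 in WT (1.42). The gene lower past the fold was Vim, which encodes an intermediate filament (-0.51). That ratio is over all cells, and the part of the differing cell makeup in it was not tested. The pseudogene copies of these genes were not added to them.

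Of 26 measured genes of ribosome assembly, 8 were higher past the fold (17.2% of all genes) and 1 lower (29.7% of all genes), and the median was 0.04. Ncl, the nucleolar protein nucleolin, had 748 CPM in Irx3/5dHet and 719 CPM in WT (0.06), Nop56 had 225 CPM in Irx3/5dHet and 149 CPM in WT (0.60), and Bysl was the one lower (-0.33). Of 15 genes of mTOR and control of translation, 7 were lower past the fold (29.7% of all genes) and 0 higher (17.2% of all genes), and their median was -0.31. Among them Mtor had 21 UMIs in Irx3/5dHet and 70 in WT (-1.13), and Ddit4, an inhibitor of mTOR, had 142 in Irx3/5dHet and 331 in WT (-0.64). Mitochondrial ribosomal proteins, which serve the separate ribosome of mitochondria, took 0.727% of UMIs in Irx3/5dHet and 0.638% in WT. Of 79 measured, 23 were higher past the fold (17.2% of all genes) and 3 lower (29.7% of all genes), and the median was 0.19. These lists were chosen with earlier results of these data known, and none has a test.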

How the data were processed

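Cells of the mouse arcuate nucleus–median eminence were measured by Drop-seq in 1 pool of Irx3/5+/- mice (5 mice) and 1 pool of WT mice (7 mice). The deposited tables hold raw UMI counts per gene and cell, and per the file headers each column is 1 cell barcode. The deposited merged table of 4297 cells is in natural log units of depth-normalized values, and only its barcodes were used. The build mm10 and the tools STAR 2.6.0b, Picard, bcl2fastq and Seurat 3 are listed in the submitters' processing notes, with no order. The annotation and the handling of reads that match several places were not given in the sources used here.

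From the counts, 1800 Irx3/5dHet barcodes (2974060 UMIs) and 2800 WT barcodes (4426817 UMIs) were reduced to cells with 300 genes or more and no more than 20% of UMIs from mitochondria. Scrublet marked 17 of 3889 kept cells (0.437%), which stayed in, so doublets may remain. Cells were clustered with scanpy 1.11.5 (2000 variable genes without ribosomal protein genes or copies, 30 components, 20 neighbours, Leiden resolution 1). A class needed at least 3 of its markers past 2-fold in 10% of its cells. Copies were assigned with blastn 2.17.0+. Names of 27805 of the 29809 rows matched GENCODE M21. Log2 ratios carry a pseudocount of 0.5 UMIs, and their intervals are exact conditional binomial, those of shares Clopper-Pearson (scipy 1.17.1). These scripts were tested on simulated data. With 1 library per genotype no test, SD or p-value was possible, and summed UMIs were compared with a limit of 0.32 on the log2 ratio among genes with at least 50 UMIs. Members were named by rule: the 10 with most UMIs, the paralogs and their partners, the 3 highest and 3 lowest ratios per comparison, and the 8 with the widest range over classes. Rps3 and Rpl8 (0 copies), low members beside their copies, Rps20 and other single departures were chosen after their values were seen. Some genes that the rule would name are not reported here. The members and lists were chosen with earlier results of these data known.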

Additional observations from a re-analysis of the deposited data

Results flagged for a closer look

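Rpl37 and Rplp1 had log2 ratios of Irx3/5dHet over WT on opposite sides of 0 in a pair of classes, with both intervals clear of 0. The difference between the classes was not tested, since each genotype is 1 library. Rpl37 had a ratio of -0.44 (-0.74 to -0.16) in fibroblasts, from 153 UMIs in Irx3/5dHet and 290 in WT, and of 0.11 (0.04 to 0.19) in neurons, from 2698 and 2546 UMIs. Rplp1 had a ratio of 0.19 in neurons, from 2099 UMIs in Irx3/5dHet and 1884 in WT, and of -0.45 in oligodendrocytes, from 81 and 286 UMIs.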

How the results depend on the processing

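The ribosomal protein share of 3.90% in Irx3/5dHet (3.16% in WT) was 3.96% (3.22%) with at least 500 genes per cell, 3.93% (3.16%) in cells of the merged table, 4.004% (3.25%) in cells of at least 1000 UMIs and 3.69% (3.07%) with each cell thinned to 1000 UMIs, which left out 638 Irx3/5dHet and 940 WT cells. It was 3.503% (2.87%) as a mean over cells, 3.97% (3.22%) without mitochondrial genes in the total, 4.03% (3.32%) without ribosomal protein pseudogenes in it, and 4.79% (4.58%) with named -ps copies added. Of settings chosen after seeing the data, it was 7.01% (8.07%) with every copy, 3.83% (3.11%) with protein-coding members only and 3.93% (3.22%) without the Meg3-led cluster. The 40 members higher in Irx3/5dHet became 18 with -ps copies, 4 with every copy and 3 among members with an own share of at least 75%. The log2 difference of oligodendrocytes from neurons, -1.0003, was -0.84 thinned, -0.73 as a mean over cells and -1.04 without the Meg3-led cluster. Of named ratios past the fold, those that turned sign did so only where copies were added. With -ps copies Rpl10 had -0.76, Rpl14 -0.024 and Rps13 -0.22. With every copy Rpl10 had -0.90, Rpl14 -0.044, Rpl17 -1.19, Rpl35a -0.17, Rpl36a -0.47, Rps13 -0.28 and Rps23 -0.38. These shifts follow from adding the UMIs of the copies, whose share was lower in Irx3/5dHet than in WT. No paired analysis was possible because each genotype is 1 pool, and no replicate can be left out.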
